A study of Mus musculus with 6 samples.

Results

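DNA replication and mitosis genes are the transcripts that a dividing cell makes to copy its chromosomes in S phase and to separate them in G2 and mitosis (G2/M). A list of 39 such genes, 19 of S phase and 20 of G2/M, was looked up by mouse gene symbol among the 24815 genes measured, and all 39 were found. The choice of genes used no measured value, though earlier results of these data were known when it was made. They were followed in common myeloid progenitors, the precursors of the red cell, platelet, granulocyte and monocyte lineages, sorted from E13.5 livers of C57BL/6 mouse embryos. Sorted cells carried CD34 and c-Kit with little Fc receptor and no Sca-1. They lacked markers of T cells (CD3, CD4, CD5 and CD8), B cells (B220), erythroid cells (TER-119) and granulocytes (Gr-1), together with CD48 and CD41. Wild-type progenitors (libraries A, F and L) were compared with progenitors homozygous for a deletion of the -77 enhancer of Gata2 (libraries C, D and Q), a distal element that controls the gene of the blood stem and progenitor cell factor GATA2. The labels name no agent given to either group. Whether each library came from its own animal or from a pool is not stated in the labels, and p-values therefore describe the spread among these 6 libraries only.

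Replication starts when the factors CDC6 and CDT1 load the ring-shaped MCM2-7 helicase onto origins. CDC45 and the GINS complex then activate the helicase, and PCNA clamps the polymerases to DNA while ribonucleotide reductase and thymidylate synthase supply nucleotides. Entry into mitosis is driven by CDK1 with cyclins A and B, after which Aurora and Polo-like kinases, kinetochore proteins and motor proteins build the spindle. S phase genes are known as targets of E2F factors, and G2/M genes as targets of the DREAM and MuvB complexes, which bind CHR elements, often beside CCAAT boxes bound by NF-Y. Fetal liver progenitors divide rapidly, and cell division genes are known as abundant transcripts in this tissue.

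The promoters of the list carried different letters in its 2 groups. RefSeq promoter windows of build GRCm38.p6, from 250 bases before to 50 bases after a gene's start, were found for 32 of the 39 genes, 16 in each group. The windows were searched on both strands for E2F-type motifs (TTTCCCGC, TTTGGCGC or GGCGGGAA, the first and last of which can overlap), CHR-type motifs (TTTGAA or TTTAAA) and the CCAAT box. Of 16 S phase promoters, 8 held an E2F-type motif, and of 16 G2/M promoters 0 did, against 3.69% of 27025 genes. Among pathway genes outside the list, 15 of 41 replication promoters (36.6%) and 9 of 58 mitosis promoters (15.5%) held an E2F-type motif. A gene was counted where any of its windows held the letters. CHR-type motifs were found in 14 of 16 G2/M promoters and 7 of 16 S phase promoters, against 30.6% of all. CCAAT boxes were found in 11 S phase and 12 G2/M promoters, against 41.1% of all. These matches are a description of letters and do not show binding.

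To show how the motifs are arranged, the 120 bases before the start are printed 5′ to 3′ for 3 S phase genes and 3 G2/M genes, which were picked after the matches were known. Capitals mark the motifs, read on either strand, so that ATTGG is a CCAAT box and TTCCCGCC is GGCGGGAA on the other strand.
Mcm6, chr1:128359706-128359825, minus strand: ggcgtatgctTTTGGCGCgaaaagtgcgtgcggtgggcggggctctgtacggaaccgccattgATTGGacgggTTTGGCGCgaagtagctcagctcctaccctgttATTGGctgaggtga
Rrm1, chr7:102441575-102441694, plus strand: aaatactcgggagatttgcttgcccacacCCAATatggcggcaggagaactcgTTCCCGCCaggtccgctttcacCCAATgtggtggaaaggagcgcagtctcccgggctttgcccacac
Uhrf1, chr17:56303217-56303336, plus strand: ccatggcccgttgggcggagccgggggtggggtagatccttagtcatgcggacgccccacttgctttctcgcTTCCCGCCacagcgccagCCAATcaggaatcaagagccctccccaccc
Cdk1, chr10:69352913-69353032, minus strand: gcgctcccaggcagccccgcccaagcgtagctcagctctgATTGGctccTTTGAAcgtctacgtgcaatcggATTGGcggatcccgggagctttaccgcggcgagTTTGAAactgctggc
Ccnb1, chr13:100786487-100786606, minus strand: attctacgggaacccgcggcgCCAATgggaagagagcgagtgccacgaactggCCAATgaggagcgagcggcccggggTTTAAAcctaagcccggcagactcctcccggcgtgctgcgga
Cdc20, chr4:118437344-118437463, minus strand: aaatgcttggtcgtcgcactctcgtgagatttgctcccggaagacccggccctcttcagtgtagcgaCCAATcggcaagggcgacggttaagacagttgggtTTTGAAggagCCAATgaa
The first 3 of these stretches combine E2F-type letters with CCAAT boxes. In the last 3, CHR-type letters lie next to CCAAT boxes, which is the arrangement known from genes of the DREAM and MuvB complexes.

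**Figure D1:**
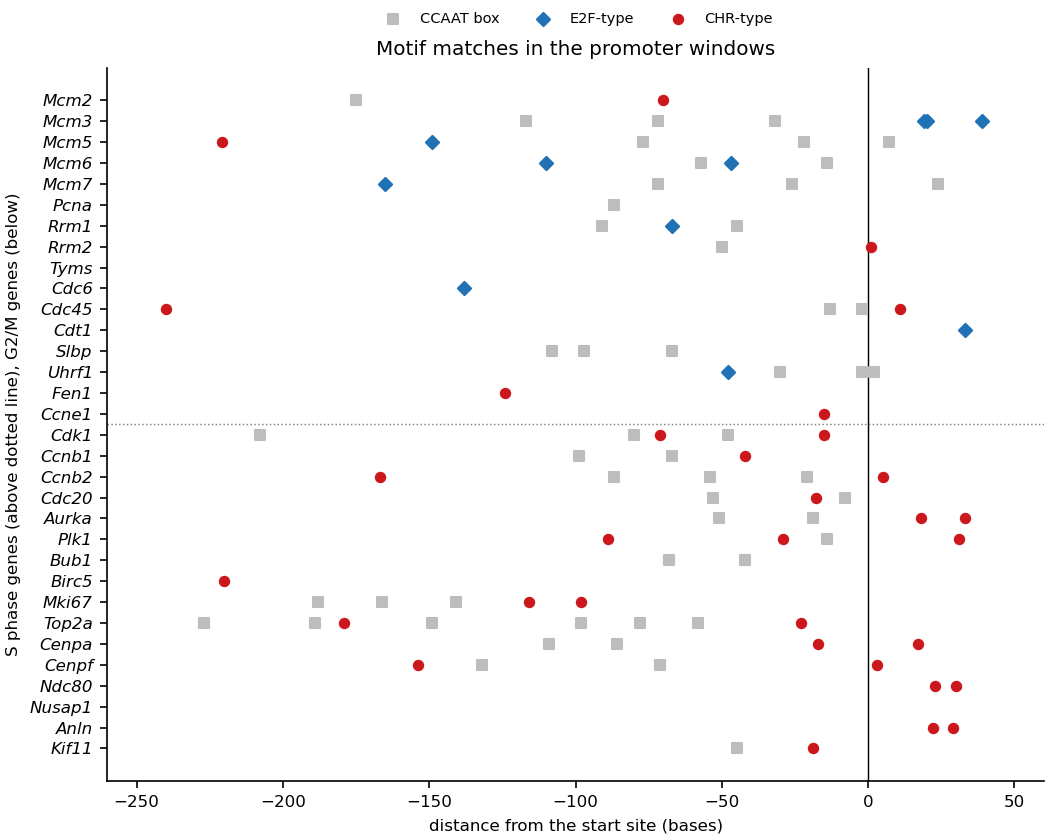
Position of each motif match (horizontal axis, bases from the start site) in the first RefSeq window of 32 genes (rows, S phase above the dotted line and G2/M below). E2F-type matches lie in 8 S phase rows and 0 G2/M rows, and CHR-type matches in 14 of 16 G2/M rows.

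The libraries held 14473913 to 30596279 expected counts, and each listed gene had 325 or more counts in every library. Gata2 itself, whose transcribed region the deletion leaves in place, was at 78.6, 57.4 and 63.9 CPM (counts relative to a TMM-adjusted library size) in wild-type A, F and L and at 8.92, 16.5 and 17.8 in mutants C, D and Q. Its log2 change was -2.20 (adjusted p = 0.068, edgeR) with all 6 libraries and -1.97 (adjusted p = 0.0019) without mutant C. Mutant C stood apart from the rest: the mean gene length over its counts was 1781 bases, against 2834 to 3124 bases in the other 5. The fits were therefore made with and without that library.

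The transcripts of the sort markers were at different levels in the sorted cells. Cd34 was at 585 to 752 TPM (a level per gene length, scaled to a common total) in 5 libraries and 323 in mutant C, and Kit at 87.4 to 136 TPM in 5 libraries and 12.5 in mutant C. In CPM, mutant C was instead the highest library for Cd34, at 1254 against 685 to 1024. For Kit it was the lowest in CPM too, at 102 against 270 to 337. Ly6a, the Sca-1 gene, was at 1.09 to 3.20 TPM. The Fc receptor genes Fcgr3 and Fcgr2b ran from 32.2 to 45.0 and from 9.94 to 21.1 TPM. Cd48, whose protein was gated out, was present at 169 to 251 TPM. Itga2b, which encodes CD41, fell by 1.98 on the log2 scale in both fits (edgeR adjusted p = 0.032 with all 6 libraries and 0.0035 without mutant C). Of markers of other cells, 10 erythroid genes led by Hba-a2 and Hbb-bs summed to 1293 to 2595 TPM in wild type and to 2242, 967 and 833 in mutants C, D and Q. Of these 10, the erythropoietin receptor gene Epor passed the threshold with all 6 libraries (log2 change -3.05), and Epor (-3.11) and the erythroid factor gene Klf1 (-3.00) passed it without mutant C. The 10 hepatoblast genes, led by Dlk1 and Afp, summed to 75.9 to 172 TPM in wild type and 106, 132 and 599 in the mutants. The 8 macrophage genes (led by Csf1r and Cd68) summed to 40.1 to 121 TPM, the 8 endothelial and stellate genes (led by Pecam1 and Pdgfrb) to 14.6 to 55.0, and the 8 B and T cell genes (led by Cd4 and Cd79a) to 0.76 to 4.30, with Cd3e at 0 in every library. The part of these cells in the results on cell division genes was not tested.

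No change of a cell division gene between the genotypes passed the test. With all 6 libraries, 0 of the 39 passed an adjusted p of 0.05 in edgeR's quasi-likelihood test (0 at an unadjusted p under 0.05), where 0.155% of 12222 genes passed it and 4.8% passed the unadjusted threshold. The median log2 change, mutant over wild type, was 0.14 over the S phase genes and 0.17 over the G2/M genes, against -0.02 over all genes tested. Without mutant C, 0 of the 39 passed, where 0.84% of 12614 genes did, and the medians were -0.00 and 0.01 against -0.01. At an unadjusted p under 0.05, 2 of 39 genes were past the threshold without mutant C, where 10.4% of all genes were. In bulk RNA, fewer dividing cells and less of these transcripts per cell cannot be told apart.

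The intervals give the sizes of change that these libraries leave possible. Without mutant C, the fitted log2 changes of the 39 genes ran from -0.24 to 0.27, and the 95% intervals of all 39 lay between -0.45 and 0.51. In 38 of the 39 the whole interval was within 0.5 of 0, the exception being Pcna, with an upper bound of 0.51. The median distance from estimate to bound was 0.19, a 1.14-fold change. With all 6 libraries that distance was 0.51, or 1.42-fold, the intervals reached from -1.55 to 1.84, and 6 of 39 lay within 0.5 of 0. A p above the threshold therefore does not show that the genotypes were equal, and the 5 libraries without mutant C bound the difference more closely than the 6.

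**Figure D2:**
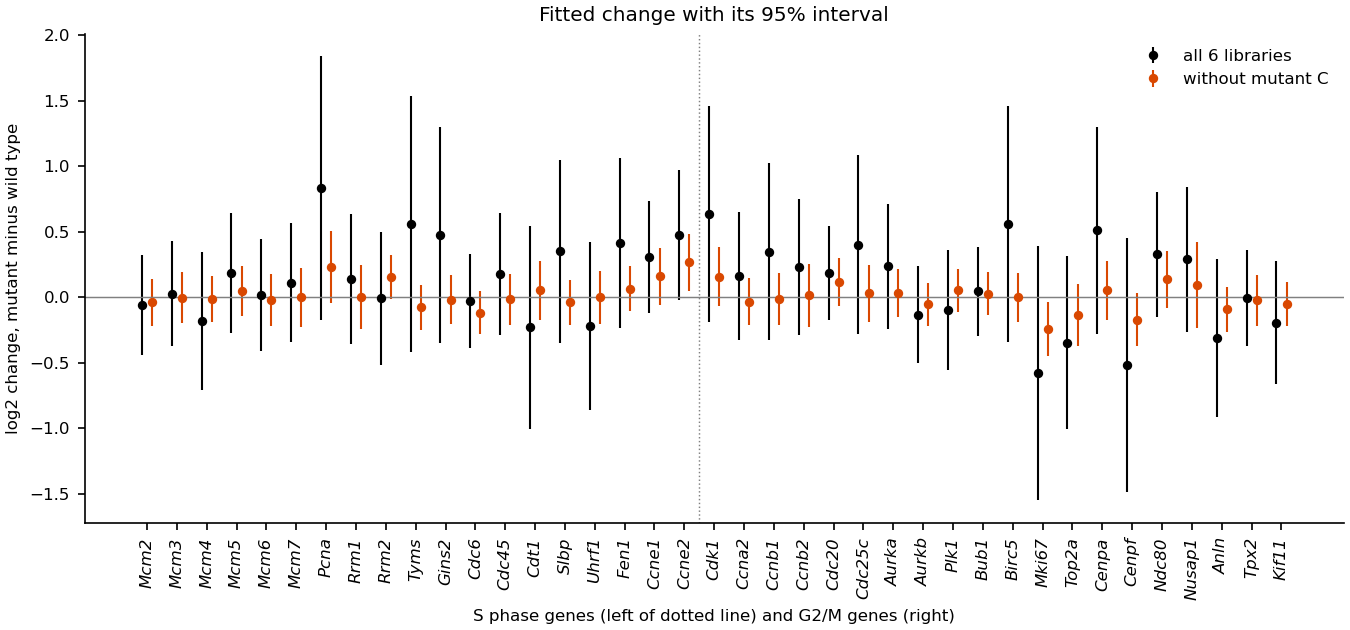
Fitted log2 change, mutant over wild type (vertical axis), of each of the 39 genes (horizontal axis) as points with bars for the 95% interval, with all 6 libraries and without mutant C. The intervals reach from -1.55 to 1.84 with all 6 libraries and from -0.45 to 0.51 without mutant C.

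The 6 subunits of the MCM helicase, which unwinds DNA ahead of the polymerases, had fitted changes near 0 without length offsets. Mcm2 was at 382, 378 and 377 CPM in wild-type A, F and L and at 351, 386 and 355 in mutants C, D and Q. Mcm6 was at 606, 679 and 685 CPM in wild type and at 691, 663 and 638 in the mutants. By CPM the groups overlapped for each of the 6 subunits, and the log2 changes ran from -0.18 (Mcm4) to 0.18 (Mcm5) with all 6 libraries. Without mutant C they ran from -0.04 (Mcm2) to 0.05 (Mcm5), with every interval inside ±0.24. Mcm4 was the subunit with the lowest value of mutant C relative to wild type: 352, 363 and 356 CPM in wild type against 233 in C, 367 in D and 343 in Q.

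Because the ring holds a copy of each subunit, the levels per gene length were also set side by side. The summed TPM of the 6 subunits was 1883, 1816 and 1736 in wild-type A, F and L and 641, 1853 and 1489 in mutants C, D and Q. The highest subunit was 2.09, 2.29 and 2.36 times the lowest in TPM in wild-type A, F and L, and 3.92, 2.27 and 2.28 times in mutants C, D and Q. Mcm4 was the lowest in every library. Mcm6 was the highest in wild type and mutant Q, and Mcm7 in mutants C and D. Mutants D and Q fell inside the wild-type range of this ratio, and mutant C lay above it.

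By CPM, origin licensing and helicase activation genes showed the same overlap, except for Cdc6 without mutant C. Cdc6, a loader of the helicase, was at 97.4, 103 and 101 CPM in wild type and 109, 93.9 and 92.2 in mutants C, D and Q. Cdt1, its partner in loading, was at 96.5, 83.5 and 90.4 CPM in wild type and 42.1, 100 and 88.0 in the mutants. For Cdt1 only mutant C was outside the wild-type range by more than 5 CPM, and its log2 change of -0.23 (95% interval -1.01 to 0.54) became 0.05 (-0.17 to 0.28) without that library. Gins2, a subunit of the GINS complex, was at 83.7, 91.4 and 91.0 CPM in wild type and 195, 83.9 and 91.9 in the mutants. Cdc45 ranged from 73.9 to 83.1 CPM in wild type and from 75.4 to 112 in the mutants. In Gins2 and Cdc45, mutant C was the highest of the 6 libraries and mutants D and Q lay in or within 1 CPM of the wild-type range.

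Pcna, the sliding clamp (ENSMUSG00000027342, build mm10, chromosome 2 from 132249162 to 132253314, minus strand), had the largest fitted change of the 39 genes with all 6 libraries and no length offsets. Its level was 470.1, 591 and 591 CPM in wild-type A, F and L and 1647, 606 and 691 in mutants C, D and Q. By CPM, the 3 mutant libraries lay above the 3 wild-type libraries, with D close to the top of wild type and C far above. By TPM, mutant C was at 712, inside the wild-type range of 678 to 755, and D and Q were above it. The log2 change was 0.83 (95% interval -0.17 to 1.84, adjusted p = 0.58, edgeR) with all 6 libraries and 0.23 (-0.05 to 0.51, adjusted p = 0.55) without mutant C. With length offsets and all 6 libraries it was 0.49, below Gins2 (0.86), Tyms (0.79) and Ccne2 (0.62). Fen1, which trims Okazaki fragments on the clamp, was at 159, 167 and 160.1 CPM in wild type and 306, 174 and 167 in the mutants. Uhrf1, which guides maintenance methylation onto new DNA, was at 415, 404 and 397 CPM and at 228, 433 and 381. By CPM, mutant C was thus the highest library for Pcna and Fen1 and the lowest for Uhrf1. The log2 changes of Fen1 and Uhrf1 were 0.41 and -0.22 with all 6 libraries and 0.07 and -0.00 without mutant C.

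The nucleotide supply genes did not move together in mutant C on the CPM scale. Rrm1, the large subunit of ribonucleotide reductase, was at 462, 566 and 564 CPM in wild type and 688, 547 and 519 in mutants C, D and Q. Rrm2, the small subunit, was at 211, 207 and 217 CPM in wild type and 157, 235 and 239 in the mutants. The subunits of this enzyme thus lay on opposite sides of wild type in mutant C by CPM. By TPM, mutant C was the lowest library for Rrm1, Rrm2 and Tyms alike. The log2 changes of Rrm1 and Rrm2 were 0.14 and -0.01 with all 6 libraries and -0.00 and 0.15 without mutant C. Tyms, thymidylate synthase, was at 123, 119 and 124 CPM in wild type and 306, 114 and 119 in the mutants. Its log2 change was 0.55 (95% interval -0.42 to 1.53) with all 6 libraries and -0.08 (-0.25 to 0.09) without mutant C. Slbp, which binds histone mRNA, ranged from 159 to 171 CPM in wild type and was at 307, 162 and 159.9 in the mutants.

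The E cyclins, partners of CDK2 at the entry to S phase, were among the genes whose groups did not overlap by CPM. Ccne1 was at 36.7, 32.7 and 40.4 CPM in wild type and 54.0, 40.8 and 41.4 in mutants C, D and Q. Ccne2 (ENSMUSG00000028212, chromosome 4 from 11191351 to 11204779, plus strand) was at 66.8, 71.2 and 71.4 CPM in wild type and 122, 76.4 and 92.0 in the mutants. By CPM, every mutant library was above every wild-type library in both genes, by under 1 CPM for Ccne1 at the nearest. By TPM, mutant C was instead the lowest library for both, at 18.1 for Ccne1 and 27.2 for Ccne2. Mutants D and Q were then inside the wild-type range for Ccne1 (31.5 to 39.9) and above it for Ccne2 (45.9 to 49.5). The log2 change of Ccne2 was 0.47 (95% interval -0.02 to 0.97, adjusted p = 0.58, edgeR) with all 6 libraries and 0.26 (0.05 to 0.48, unadjusted p = 0.024, adjusted p = 0.40) without mutant C. With offsets for gene length it was 0.62 (0.10 to 1.14, unadjusted p = 0.026, adjusted p = 0.48) and 0.34 (0.11 to 0.57, unadjusted p = 0.0095, adjusted p = 0.24). Ccne1 had fitted values of 0.31 (-0.12 to 0.74) and 0.16 (-0.06 to 0.38) without offsets.

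**Figure D3:**
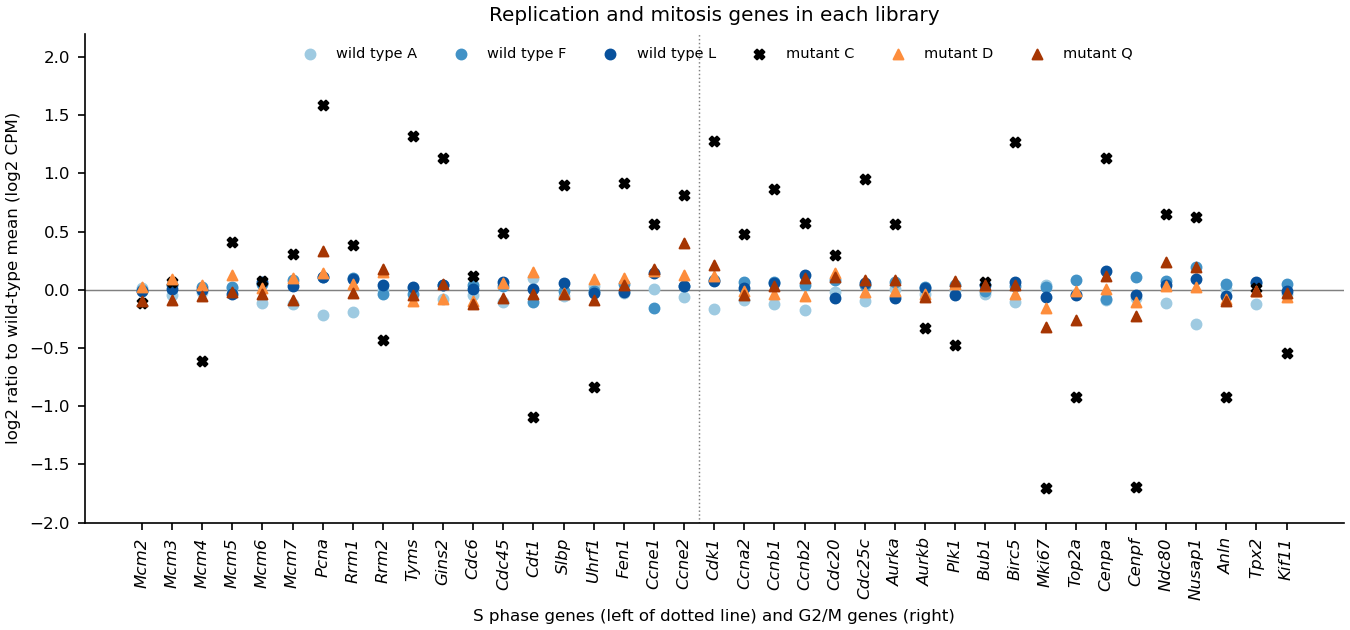
Log2 ratio to the wild-type mean (vertical axis, log2 CPM) of each of the 39 genes (horizontal axis), with a point for each of the 6 libraries. Mutants D and Q stay between -0.32 and 0.40, while mutant C holds values far on both sides of 0.

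By CPM, the kinase that starts mitosis and its cyclins were in or above the wild-type range. By TPM, mutant C was below that range for Cdk1, Ccna2, Ccnb1, Ccnb2 and Cdc25c. Mutants D and Q were also below it in TPM for these genes except Cdk1, where D was above it and Q below. Cdk1 (chromosome 10 from 69335146 to 69352938, minus strand) was at 152, 181 and 179.7 CPM in wild type and 412, 185 and 197 in mutants C, D and Q. By CPM its groups did not overlap, though mutant D was within 5 CPM of the highest wild-type library. Its log2 change was 0.63 (95% interval -0.19 to 1.45) with all 6 libraries and 0.16 (-0.07 to 0.38) without mutant C. With offsets for gene length it was 0.22 (-0.07 to 0.50) and 0.13 (-0.09 to 0.35). Ccnb1, the main mitotic cyclin, was at 191, 219 and 216 CPM in wild type and 380.2, 203 and 213 in the mutants. Ccna2, Ccnb2 and Cdc25c, the last a phosphatase that activates CDK1, had mutants D and Q in or within 1 CPM of the wild-type range and mutant C above it. For these 4 genes the log2 changes without mutant C ran from -0.04 (Ccna2) to 0.03 (Cdc25c).

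The intervals of the mitotic kinases and checkpoint genes included 0 in both fits. Aurka, the centrosomal Aurora kinase, was at 82.7, 86.1 and 78.4 CPM in wild type and 122, 82.0 and 87.3 in mutants C, D and Q. Aurkb, the kinase of the chromosomal passenger complex, was at 103, 107 and 106 CPM and at 83.8, 103 and 101. Birc5, survivin, a partner of Aurora B in that complex, was at 101, 111 and 114 CPM in wild type and 262, 106 and 112 in the mutants. By CPM, mutant C thus lay below wild type for Aurkb and above it for Birc5, while D and Q were within 3 CPM of the wild-type range in both. With a correction for length, the log2 ratio of mutant C to wild type was -0.65 for Aurkb and 0.01 for Birc5. Plk1, the Polo-like kinase, was at 80.3, 82.7 and 78.0 CPM in wild type and 57.9, 82.9 and 84.7 in the mutants. Cdc20, an activator of the anaphase-promoting complex, was at 105, 113 and 101 CPM in wild type and 131, 117 and 115 in the mutants. Bub1, a checkpoint kinase, was at 145 to 153 CPM in wild type and 152 to 156 in the mutants. By CPM, Cdc20 was higher in 3 of 3 mutant libraries than in any wild-type library. By TPM, mutant C was below wild type, at 47.7 against 107 to 127, and D and Q were inside that range. The log2 change of Cdc20 was 0.19 (-0.17 to 0.54) with all 6 libraries and 0.12 (-0.07 to 0.30) without mutant C. With length offsets it was 0.04 (-0.24 to 0.32) and 0.13 (-0.08 to 0.34). Without offsets, the log2 changes of Bub1 were 0.04 (-0.29 to 0.38) and 0.03 (-0.14 to 0.19). Those of Aurka, Aurkb, Birc5 and Plk1 ran from -0.14 (Aurkb) to 0.56 (Birc5) with all 6 libraries and from -0.06 (Aurkb) to 0.05 (Plk1) without mutant C.

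Mki67, which codes for the proliferation marker Ki-67, a coat protein of mitotic chromosomes (ENSMUSG00000031004, chromosome 7 from 135689784 to 135716361, minus strand), was at 963, 955 and 897 CPM in wild type and 288, 844 and 749.8 in mutants C, D and Q. Every mutant library was below every wild-type library, and mutant C was far below the other mutants. The log2 change was -0.58 (95% interval -1.55 to 0.39, adjusted p = 0.58, edgeR) with all 6 libraries and -0.24 (-0.45 to -0.04, unadjusted p = 0.027, adjusted p = 0.42) without mutant C. With offsets for gene length it was -0.13 (-0.38 to 0.13) and -0.12 (-0.31 to 0.07). Mki67 has the second longest transcript of the list, 10075 bases.

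Kinetochore, chromosome and spindle genes included the longest transcripts. Cenpf, a kinetochore protein gene of 10503 bases, was at 161, 182 and 164 CPM in wild type and 52, 157 and 145 in the mutants. Top2a, the topoisomerase that untangles sister chromatids, was at 859, 934 and 854 CPM in wild type and 466, 878 and 737 in the mutants. Anln, a scaffold of the cleavage furrow, was at 99.1, 102 and 95.5 CPM and at 52.1, 93.7 and 92.7. In these 3 genes mutant C was the lowest library, and for Cenpf and Anln every mutant library was below every wild-type library. The log2 changes of Cenpf, Top2a and Anln with all 6 libraries were -0.52, -0.35 and -0.31, and with length offsets -0.07, 0.00 and 0.05. Without mutant C they were -0.17, -0.14 and -0.09, and with length offsets -0.05, -0.04 and 0.00. Cenpa, the short gene of the centromeric histone, was at 70.7, 71.2 and 84.1 CPM in wild type and 165, 75.3 and 81.6 in the mutants. The spindle genes Kif11 (a motor protein), Tpx2 and Nusap1 and the kinetochore gene Ndc80 had log2 changes from -0.19 (Kif11) to 0.33 (Ndc80) with all 6 libraries and from -0.05 (Kif11) to 0.13 (Ndc80) without mutant C.

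Counted over the list by CPM, the groups did not overlap in 8 of 39 genes with all 6 libraries. The mutant was higher in 5 (Pcna, Ccne1, Ccne2, Cdk1 and Cdc20), or 12.8%, against 10.6% of all genes tested, and lower in 3 (Mki67, Cenpf and Anln), or 7.69%, against 11.4%. Without mutant C the mutant was higher in 7, the same 5 with Rrm2 and Plk1, or 17.9% against 14.3%. It was lower in 5, the same 3 with Tyms and Cdc6, or 12.8% against 14.6%. These shares are near those of all genes and are not a result about the list.

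Levels per gene length ranged widely within the list. In wild type, Pcna was the highest with 724 ± 40.7 TPM (SD, n = 3), followed by Mcm6 with 441 ± 3.13, Mcm7 with 397 ± 19.6 and Top2a with 333 ± 25. The lowest were Anln with 36.0 ± 3.22, Cenpf with 31.1 ± 0.526 and Cdc25c with 20.5 ± 0.323. In the order of wild-type levels, the ranges of mean ± SD overlapped in 27 of the 38 pairs of neighbours and were apart in 11. Of the 39 genes, 19 were above the 90th percentile of all genes tested, and the lowest was at percentile 51.0. Among wild-type libraries the SD in TPM had a median of 5.62% of the mean and was largest for Cdt1, at 14.4%.

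**Figure D4:**
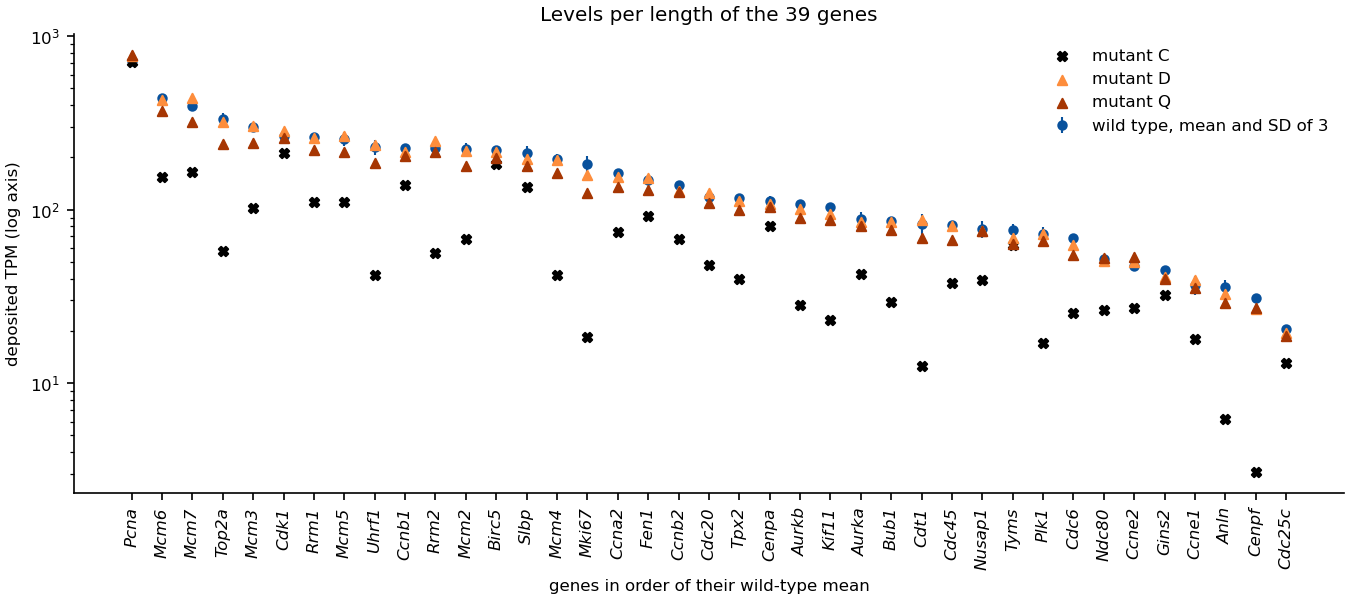
TPM (vertical log axis) of each of the 39 genes (horizontal axis, in order of the wild-type mean), with the mean and SD of 3 wild-type libraries and a point for each mutant library. Pcna is at the top with 724 TPM and Cdc25c at the bottom with 20.5 TPM in wild type, and mutant C is the lowest library for 38 of the 39 genes.

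The list as a whole took a similar part of the RNA in 5 of the libraries. The 39 genes held 1.07%, 1.08% and 1.06% of the expected counts in wild-type A, F and L and 0.675%, 1.06% and 0.979% in mutants C, D and Q. In TPM they held 0.680%, 0.661% and 0.641% in wild type, and 0.315%, 0.660% and 0.579% in mutants C, D and Q. On both of these scales mutant C was lowest and mutant Q was below the wild-type range, while mutant D was in that range for TPM. In TMM-adjusted CPM, by contrast, the summed level of the 39 genes was highest in mutant C. It was 9147, 9854 and 9633 in wild type and 10996, 9691 and 9285 in mutants C, D and Q. The TMM factor of mutant C was 0.614, against 1.06 to 1.17 in the other libraries. The summed TPM of the G2/M genes was 0.628, 0.637 and 0.627 times that of the S phase genes in wild type and 0.573, 0.593 and 0.614 times in mutants C, D and Q. All 3 mutants were below wild type in this ratio, which weighs abundant genes most. The median log2 ratio to wild type (CPM) of the G2/M genes minus that of the S phase genes, in which each gene counts alike, did not order the groups: it was -0.03, 0.02 and -0.01 in wild type, and 0.01, -0.10 and 0.08 in mutants C, D and Q. Neither measure was tested.

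Gene length went with where mutant C lay. By CPM, mutant C was the highest of the 6 libraries in 25 of the 39 genes, the lowest in 12 and between the others in 2 (Mcm3 and Tpx2). It was the lowest for all 5 genes over 4000 bases (Mki67, Cenpf, Anln, Top2a and Kif11) and the highest for all 6 under 1700 bases (Pcna, Slbp, Cdk1, Ccnb2, Birc5 and Cenpa), bounds picked after the values were seen. By TPM, in contrast, mutant C was the lowest library in 38 of 39 genes, the exception being Pcna. Direction in mutant C therefore depends on the scale: the median log2 change of all genes tested with log2(TPM + 1) was -0.54, and relative to that the S phase and G2/M medians were 0.06 and 0.07. The direction relative to all genes also depends on the settings, as the relative medians were 0.15 and 0.16 with a pseudocount of 0.1 and -0.21 and -0.20 with no filter on low values. Dropping the filter moved the median of all genes to -0.27 and left the medians of the list unchanged. CPM is scaled by TMM factors and keeps gene length in each value, while TPM divides by it.

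The difference of mutant C from the mean of mutants D and Q was set against gene length. Over all genes tested, its median ran from 1.64 log2 units in the shortest 10% of genes to -1.32 in the longest 10%, and across genes its Spearman correlation with length was -0.75. Over the 39 genes it was -0.60, over the 20 G2/M genes -0.88, and over the 19 S phase genes -0.23. The S phase genes span only 1518 (Pcna) to 3997 bases (Rrm1) and the G2/M genes 982 (Birc5) to 10503 (Cenpf). Those 2 correlations are therefore over unlike ranges of length. Over 117 other replication and mitosis genes it was -0.88. These correlations are across genes of the same 3 libraries, which are not independent replicates. Beside the middle range (lower to upper quartile) of genes of like length, 20 of the 39 lay within it, 13 above it and 6 below it. By the definition of quartiles, a share of all genes near that of these 20 lies within it.

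In both groups some genes lay outside the middle range, 10 of 19 S phase and 9 of 20 G2/M genes. Quartiles leave a similar share of all genes outside by construction, so these counts are not a result about the list. Tyms lay at 1.40 log2 units in mutant C over D and Q, where genes of like length had a median of -0.38, and Gins2 at 1.15 where they had -0.60. Pcna lay at 1.35, where they had 0.65. Below the trend were Cdt1 at -1.15, Rrm2 at -0.60 and the G2/M gene Plk1 at -0.53, where genes of like length had 0.34. The longest G2/M genes lay on it, with Mki67 at -1.47 and Cenpf at -1.53. Lengths are those of the deposited length column, and whether they are the lengths of the transcripts made in these cells, for Tyms and Gins2 among others, was not tested. With a correction for length, the SD over G2/M genes of the log2 ratio of mutant C to wild type went from 0.914 to 0.420. Over the S phase genes it went from 0.724 to 0.750, and over all genes tested from 1.19 to 0.840. The S phase SD was below that of all genes before and after the correction. Mutant C is 1 library, so this scatter has no replicate, and its source was not tested.

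**Figure D5:**
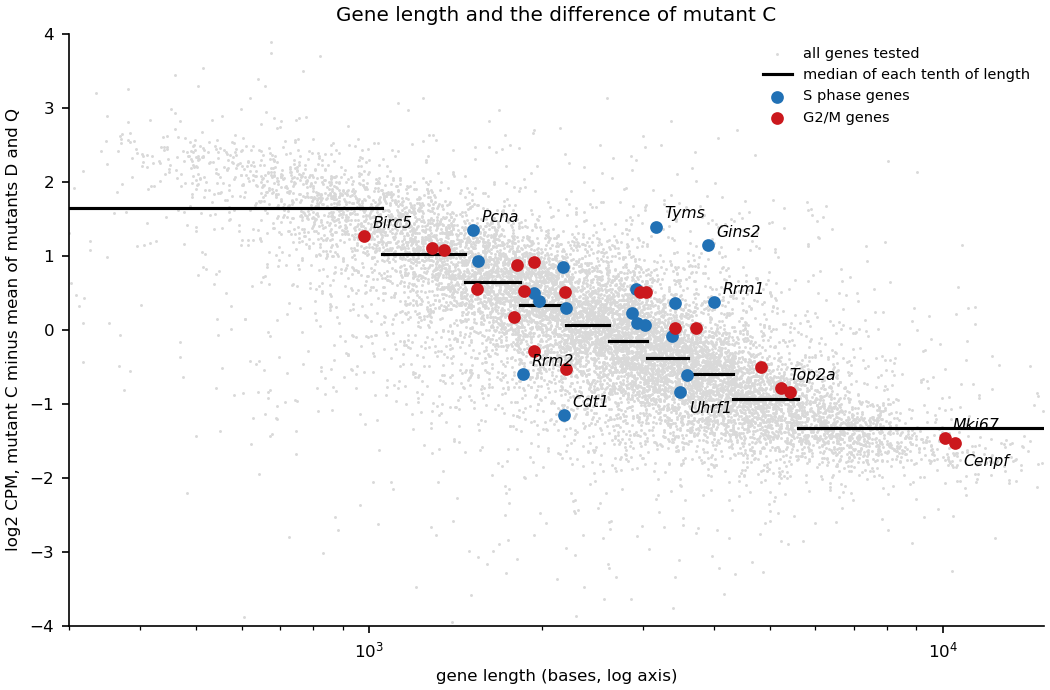
Difference of mutant C from the mean of mutants D and Q (log2 CPM, vertical axis) against gene length in bases (log axis) for all genes tested (grey), the S phase genes (blue) and the G2/M genes (red), with black lines at the medians of 10 groups by length. The G2/M genes follow the fall with length (Spearman -0.88), Tyms and Gins2 lie above it and Cdt1 and Rrm2 below it, and 46 genes are outside the axes.

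With offsets for gene length in the edgeR fit of all 6 libraries, 0 of the 39 genes passed the adjusted threshold, where 0.475% of 12222 genes did, and the smallest adjusted p was 0.48. The median log2 changes were then 0.15 for S phase and 0.11 for G2/M genes, against 0.05 over all genes tested, and the median distance to an interval's bound narrowed from 0.51 to 0.33. The whole interval was within 0.5 of 0 in 19 of 39 genes, against 6 before. At an unadjusted p under 0.05, 1 of 39 genes (Ccne2) was past the threshold, where 9.38% of all genes were. Without mutant C and with length offsets, 0 of 39 passed the adjusted threshold, where 1.01% of all genes did, and 1 of 39 (Ccne2) the unadjusted one, where 11.3% did. The medians were then 0.07 and 0.04, against 0.05 over all genes. Length-corrected, mutant C lay above wild type in 29 of the 39 genes (74.4%) and below it in 10, where it lay above wild type in 53.3% of all genes tested.

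Other genes of the same pathways were given from lists of 50 replication genes, 67 mitosis genes and 22 cell cycle transcription regulators, of which 0 passed the adjusted threshold in either fit. The medians without mutant C were 0.02, -0.02 and -0.07 on the log2 scale, and with all 6 libraries 0.29, -0.02 and -0.25. Of the most abundant, Dut, which removes dUTP, was at 153, 169 and 196 CPM in wild type and 378, 174 and 199.7 in mutants C, D and Q, and Tipin, of the fork protection complex, at 122, 137 and 138 and at 296, 138 and 135. Stmn1, a microtubule destabiliser, was at 605, 757 and 764 CPM and at 1076, 704 and 813. Cks2, a CDK subunit, was at 111, 131 and 148 CPM and at 422, 119 and 149. In these 4 genes mutant C was the highest library and D was in the wild-type range. Tfdp1, the DNA-binding partner of E2F factors, was at 251, 259.8 and 255 CPM in wild type and 284, 262 and 261 in the mutants, and Rbbp4, of the MuvB core, at 463, 559 and 578 and at 879.7, 552 and 564.

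At an unadjusted p under 0.05 without mutant C, 0 of the 50, 3 of the 67 and 1 of the 22 genes were past the threshold, named here after their values were seen. Among all genes tested 10.4% were, so each list was below that share and these genes are not a result about the lists. The 3 mitosis genes were Depdc1a with a log2 change of 0.18, the spindle pole gene Aspm with -0.19 and the CDK phosphatase gene Cdc25b with -0.28. The regulator was Mycn, a transcription factor of the Myc family, with 0.33. With all 6 libraries 0 genes of the 3 lists were past the unadjusted threshold, so none of these has a call in either fit.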

How the data were processed

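RNA was sequenced from 3 wild-type and 3 mutant libraries, and depth ran from 14473913 to 30596279 expected counts, which limits the precision of the low genes most. Per the submitters' processing notes, RSEM 1.2.18, CASAVA 1.8.2, Bowtie 1.1.1 and build mm10 were used. Annotation, layout and strand were not given in the sources used here, so antisense, overlapping and near-identical genes are uncertain. The deposited expected counts are estimated counts without normalization, and the deposited TPM values are scaled by the authors for gene length, per the file headers. The deposited length column, in bases, equals the effective length in all 6 files. A table of gene names matched 24448 of 24815 identifiers. Positions are from GENCODE M21.

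Rounded counts were tested in edgeR 4.0.16 (R 4.3.3) using filterByExpr with a minimum count of 10, TMM scaling, quasi-likelihood F test, a Benjamini-Hochberg threshold of 0.05, with all 6 libraries and without mutant C. Standard errors are the absolute log2 change over the square root of F, and intervals cover 95%. Log2 ratios used CPM with a prior count of 2, and length offsets a loess curve with a span of 0.3. Alternatives were DESeq2 1.42.0, upper-quartile scaling, no filter, leaving out each library, voom and limma 3.58.1 on log2 TPM with a pseudocount of 1 or 0.1. The code was tested on simulated data. Libraries of a group differed beyond counting noise (smallest chi-square per gene 9.25), so each counted as 1 sample.

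The list, the other gene lists and the tests were chosen with earlier results of these data known. All 39 genes of the list are named; of the other pathway lists, genes past the threshold or, failing that, the 2 most abundant by TPM; the gate genes, of which 1 is not reported here; and the 2 most abundant genes of each other cell type.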

Additional observations from a re-analysis of the deposited data

How the results depend on the processing

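All 27 alternatives of the 2 counts of genes past the threshold gave 0 of 39, leaving out each library in turn included (range 0 to 0), with a smallest adjusted p of 0.20 and at most 4 genes at an unadjusted p under 0.05. Of 54 alternatives of the medians, 38 moved by less than the spread between libraries and 16 by more. That spread was 0.16 (S phase) and 0.14 (G2/M) with all 6 libraries, and 0.049 and 0.057 without mutant C. Leaving out mutant C took the S phase median from 0.14 to -0.00, which is within the wider spread and counts among the 38. Those 38 therefore do not show that mutant C had little weight. On the deposited TPM with all 6 libraries, the S phase median was -0.47 with a pseudocount of 1, with 0.1 and with no filter, and the G2/M median -0.46, -0.47 and -0.46, against medians of all genes of -0.54, -0.63 and -0.27. Without mutant C on TPM, the S phase median was -0.13, -0.13 and -0.13 and the G2/M median -0.11, -0.11 and -0.11, against -0.12, -0.13 and -0.08 over all genes. Without mutant C the S phase median with length offsets was 0.068. Leaving out each library gave S phase medians from -0.00 to 0.22 and G2/M medians from 0.0069 to 0.24 with all 6 libraries, and from -0.043 to 0.085 and from -0.053 to 0.036 in the fit without mutant C. Relative to all genes, the 6-library TPM medians were above 0 with the filter and below 0 without it. With a pseudocount of 1, the medians of the list were the same with and without the filter. Only the median of all genes moved, from -0.54 over 11342 genes to -0.27 over 18540, so this change of sign is not one of the listed genes. The cause of the other shifts was not tested. No paired analysis was possible because the groups share no replicate letters. Every gene of the list had at least 325 counts in each library.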
